A study of Homo sapiens with 8 samples.

Results

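The cholesterol and fatty acid synthesis genes described here are 33 enzymes and regulators, chosen by symbol from the count table of 26475 genes. They were 7 enzymes of the mevalonate arm, 10 enzymes that turn squalene's precursor into cholesterol, 10 enzymes of fatty acid synthesis, and 6 regulators and carriers of the sterol response. The list is not the whole pathway. All 33 had enough counts to be tested. The RNA came from 8 samples of BT474, a human line of ERBB2-amplified breast carcinoma cells, and the series title places them in work on cells that tolerate lapatinib, a kinase inhibitor of ERBB2 and EGFR. Of these, 4 samples were labelled NPY1R high and 4 NPY1R low, where NPY1R encodes a receptor for neuropeptide Y. The labels list this as genotype, name no drug for these samples, and do not say how high and low cells were obtained or whether replicates were separate cultures. The p-values therefore measure the spread between these samples, which may be technical.

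Cholesterol and fatty acids are both built from cytosolic acetyl-CoA. In the mevalonate arm, acetyl-CoA units are joined and reduced to isoprenoid building blocks, which are then assembled into squalene, closed into a ring and trimmed to cholesterol. In the fatty acid arm, acetyl-CoA is carboxylated, extended to palmitate, and then elongated and desaturated. Both arms are switched on by SREBP transcription factors, which SCAP escorts out of the endoplasmic reticulum when sterols are scarce and which INSIG proteins hold back when sterols are plentiful. Breast cancers with amplified ERBB2 are known for high fatty acid synthase activity.

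Total counts ranged from 18025648 to 30609791 per library. NPY1R itself was at 856.5 ± 170 CPM (counts divided by TMM-scaled library size) in NPY1R high libraries and 95.54 ± 5.65 CPM in NPY1R low ones (SD, n = 4 each), 8.96 times as much (edgeR adjusted p 1.14e-06), and every library was on the side its label gives. The 33 genes took between 0.776% and 0.902% of the counts of the NPY1R high libraries and between 0.879% and 1.16% in NPY1R low. All 8 luminal epithelial markers checked were measured, with a summed level of 7348 to 8431 CPM in NPY1R high libraries and 7280 to 9508 CPM in NPY1R low. Single markers differed. By log2 fold change EPCAM (-0.30, edgeR adjusted p 0.00436) and FOXA1 (-0.23, edgeR adjusted p 0.00891) were lower in NPY1R high. GATA3 was higher (0.60, edgeR adjusted p 0.00616), and the other 5 had an edgeR adjusted p of at least 0.05. Of 6 fibroblast, 5 immune, 4 endothelial and 5 basal markers, 1 of each list passed the filter, with summed levels between 0.936 and 18.2 CPM, and COL1A2, DCN, CD3E, MS4A1 and KRT14 had 0 counts in all 8 libraries. NPY1R high replicate 3 and NPY1R low replicate 4 deviated from their groups together (r = 0.501 across 14008 genes, which share these libraries), and values without them are given where they matter.

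Promoter sequence is shown first because SREBPs bind beside a helper factor, NF-Y, whose binding core is CCAAT. RefSeq windows (GRCh38.p14) of the 250 bases before the start site matched 29 of the 33 genes. CCAAT was read on both strands, so that ATTGG counts as well. It was present in 19 of the 29 windows (65.5%), against 33% of all 27305 promoter windows of this length and 34.3% of the 16199 that belong to genes in the count table. In the enzymes of cholesterol synthesis it was present in 11 of 14 (78.6%), in fatty acid synthesis in 5 of 9 (55.6%) and in the regulators in 3 of 6 (50%). The GC box core GGGCGG, a site for Sp1, was in 26 of 29 (89.7%), against 42.3% of all windows and 53.5% of those of genes in the count table. A strict sterol element, TCACNCCAC, was in 1 of 29 (3.4%), that of SREBF2, and in 0.9% of all windows. These matches describe the letters of the windows and show nothing about binding in these cells.

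The windows below belong to 3 genes that fell in NPY1R high (ACLY, SCD, ACSL3), to the feedback gene INSIG1, and to 2 cholesterol enzymes, MSMO1 and the nearly level NSDHL. Each is cut to the stretch that holds no annotated exon of GENCODE release 29, and the capitals mark CCAAT or ATTGG. They are chr17:41919023-41919272 on the minus strand, and chr10:100346983-100347123, chr2:222860786-222860933, chr7:155297628-155297775, chr4:165327419-165327622 and chrX:152830813-152830966 on the plus strand. Each is read 5′ to 3′ along its gene.
ACLY: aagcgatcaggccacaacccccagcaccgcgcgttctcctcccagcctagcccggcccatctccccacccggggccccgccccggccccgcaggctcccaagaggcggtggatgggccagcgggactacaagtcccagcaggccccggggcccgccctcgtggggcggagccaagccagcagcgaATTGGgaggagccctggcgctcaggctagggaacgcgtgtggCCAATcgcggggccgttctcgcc
SCD: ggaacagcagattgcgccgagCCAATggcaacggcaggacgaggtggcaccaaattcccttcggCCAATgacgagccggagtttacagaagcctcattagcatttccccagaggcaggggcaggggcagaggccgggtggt
ACSL3: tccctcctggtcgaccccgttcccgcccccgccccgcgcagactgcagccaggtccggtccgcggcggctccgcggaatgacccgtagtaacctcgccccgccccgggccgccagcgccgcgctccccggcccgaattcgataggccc
INSIG1: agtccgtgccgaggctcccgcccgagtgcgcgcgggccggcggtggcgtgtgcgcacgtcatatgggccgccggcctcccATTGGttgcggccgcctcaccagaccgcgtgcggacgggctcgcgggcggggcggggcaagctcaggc
MSMO1: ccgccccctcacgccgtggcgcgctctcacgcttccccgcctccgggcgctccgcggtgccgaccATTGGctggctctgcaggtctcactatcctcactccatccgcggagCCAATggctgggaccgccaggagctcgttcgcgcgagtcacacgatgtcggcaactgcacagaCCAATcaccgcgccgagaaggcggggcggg
NSDHL: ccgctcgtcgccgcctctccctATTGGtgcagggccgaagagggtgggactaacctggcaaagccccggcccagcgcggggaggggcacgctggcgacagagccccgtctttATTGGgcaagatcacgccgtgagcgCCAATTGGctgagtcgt
ACLY has 2 such cores in the stretch shown, SCD 2, INSIG1 1, MSMO1 3 and NSDHL 4, and in NSDHL 2 of them overlap on opposite strands. ACSL3 has 0 in the stretch shown and 1 nearer its start. The window of EBP holds 3, but lies wholly in annotated exons and is not printed. That of FADS2, which also fell, holds 0 CCAAT cores and 0 GC box cores and is not printed either. The start that RefSeq's table uses for ACLY lies inside the span of the gene given below.

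Of the lipid synthesis genes, SCD, FADS2, ACSL3 and ACLY fell in the fatty acid arm of NPY1R high cells, by 38.1%, 29.1%, 27.1% and 18.4%, and EBP fell by 27.4% among the cholesterol enzymes. In all, 5 of 33 genes (15.2%) were called lower by edgeR's quasi-likelihood test at a Benjamini-Hochberg adjusted p of 0.05, where 7.81% of the 14008 tested genes were called lower. None was called higher (0 of 33), where 5.78% of all tested genes were, and the count was also 0 in DESeq2 and in limma-voom. At an unadjusted p of 0.05, 15 genes (45.5%) were lower and 1 was higher, against 15.1% lower over all tested genes. Without regard to any threshold, 27 of 33 (81.8%) had a negative log2 fold change, against 55.9% of all tested genes. The balance over all genes turned with the scaling, to 5.59% lower and 7.20% higher with upper-quartile factors, where 4 of the 33 were called lower and 0 higher. In bulk RNA, fewer cells that express a gene and less RNA per cell cannot be told apart.

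**Figure D1:**
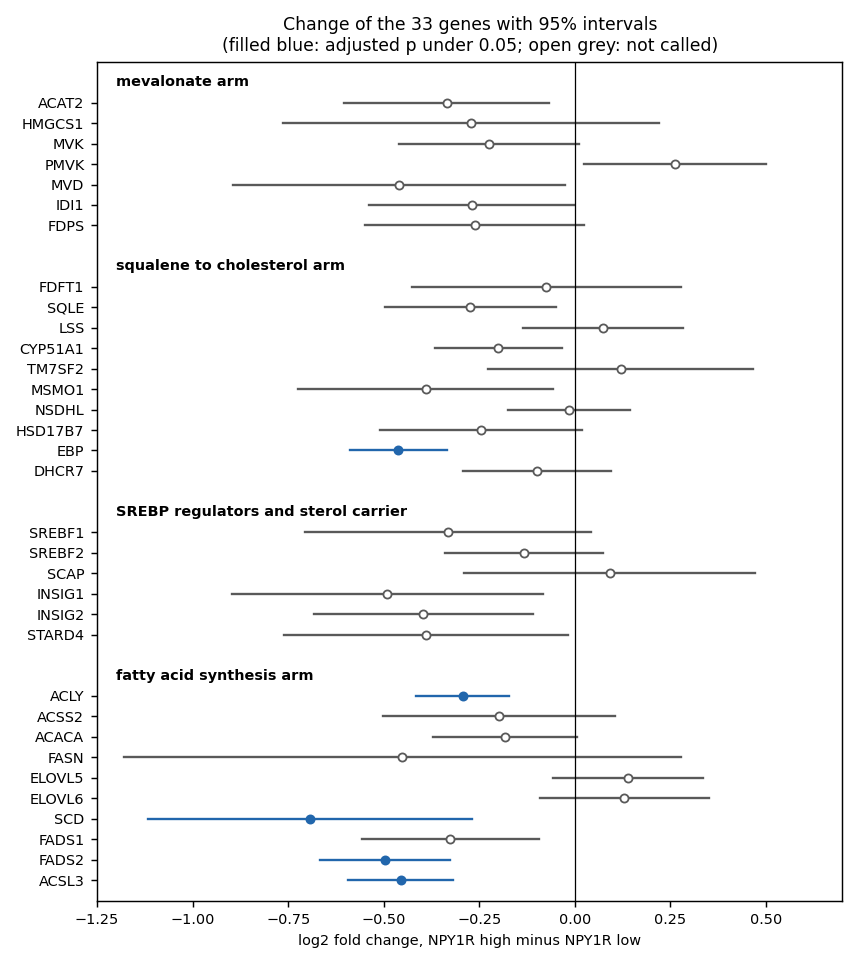
Log2 fold change of each of the 33 genes (x axis, NPY1R high minus NPY1R low) with its 95% interval, grouped by arm. The 5 filled genes were called lower, 27 of the 33 points lie left of 0 (26 with the other scalings, where NSDHL turns), and the interval of FASN is the widest.

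In the fatty acid arm, 4 of 10 genes (40%) were called lower and 0 higher, with a median log2 fold change of -0.31 against -0.03 for all tested genes. ACLY (chr17:41866917-41930545) splits citrate to give the cytosolic acetyl-CoA that feeds both arms. It had 366.2, 342.2, 346.4 and 377.4 CPM in NPY1R high replicates 1 to 4, and 446.1, 418.2, 461.9 and 429.6 CPM in NPY1R low. Every NPY1R high library lay below every NPY1R low library, a pattern that 4 of the 33 genes and 11.4% of all tested genes showed, while 0 of the 33 and 8.77% of all tested genes had every NPY1R high library above. The means were 358 ± 16.6 and 438.9 ± 19.1 CPM (SD, n = 4 each), a log2 fold change of -0.29 (SE 0.05) with an edgeR adjusted p of 0.00523.

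SCD (chr10:100347233-100364826) puts the first double bond into saturated fatty acids and had the largest fall of the 33 genes. It had 1158, 1051, 1359 and 1427 CPM in NPY1R high libraries and 1712, 1381, 2329 and 2654 CPM in NPY1R low. The groups overlapped, because NPY1R low replicate 2 lay below NPY1R high replicate 4. The log2 fold change was -0.69 (SE 0.19) with an edgeR adjusted p of 0.0368, so that NPY1R high cells had 38.1% less. The call depended on single libraries. It was lost in 7 of the 8 fits made with 1 library removed, where the adjusted p reached 0.107 and it held without NPY1R low replicate 2 (edgeR adjusted p 0.00757). The change over these 8 fits ranged from -0.50 to -0.84.

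FADS2 (chr11:61816203-61867354) is the delta-6 desaturase of polyunsaturated fatty acid synthesis. It had 634.5, 567.9, 600.7 and 701.3 CPM in NPY1R high libraries and 934.5, 811.2, 925.1 and 860.7 CPM in NPY1R low, with no overlap. Its log2 fold change was -0.50 (SE 0.08), with an edgeR adjusted p of 0.00188. FADS1, the neighbouring delta-5 desaturase read from the opposite strand, was at 200.6 ± 19.6 and 251.3 ± 34.6 CPM (SD, n = 4 each), a log2 fold change of -0.33 (SE 0.10) that did not pass (edgeR adjusted p 0.0684). The 2 genes overlap by 801 bases in RefSeq, and the authors' use of strand in counting is not stated, so reads of the shared stretch cannot be divided.

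ACSL3 (chr2:222861036-222944639) activates fatty acids by joining them to coenzyme A and sits on lipid droplets and the endoplasmic reticulum. It had 366.9, 357.8, 386.7 and 345.6 CPM in NPY1R high libraries and 492.8, 468.8, 489.8 and 547 CPM in NPY1R low. The groups were well apart, and the log2 fold change was -0.46 (SE 0.06, edgeR adjusted p 0.000851). Together with EBP it was called lower in every alternative fit run, 29 for each gene.

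FASN, the synthase that builds palmitate, had the widest interval of the 33 genes. It had 535.6, 420.4, 228.5 and 503.5 CPM in NPY1R high libraries and 724.6, 734.4, 581.9 and 267 CPM in NPY1R low. NPY1R high replicate 3 and NPY1R low replicate 4 were far below the rest of their groups. Its log2 fold change was -0.45, with a 95% interval of -1.18 to 0.28 and an edgeR adjusted p of 0.444. Without these 2 libraries FASN was called lower (edgeR adjusted p 0.0162), with a log2 fold change of -0.45, and without NPY1R low replicate 4 alone the adjusted p was 0.0723. ACACA, the carboxylase that commits acetyl-CoA to fatty acids, had -0.18 (edgeR adjusted p 0.204). ACSS2, which makes acetyl-CoA from acetate, had -0.20 (edgeR adjusted p 0.415). The elongases ELOVL5 and ELOVL6 were the only 2 genes of the arm with a positive change, 0.14 and 0.13, and neither passed (edgeR adjusted p 0.369 and 0.477).

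**Figure D2:**
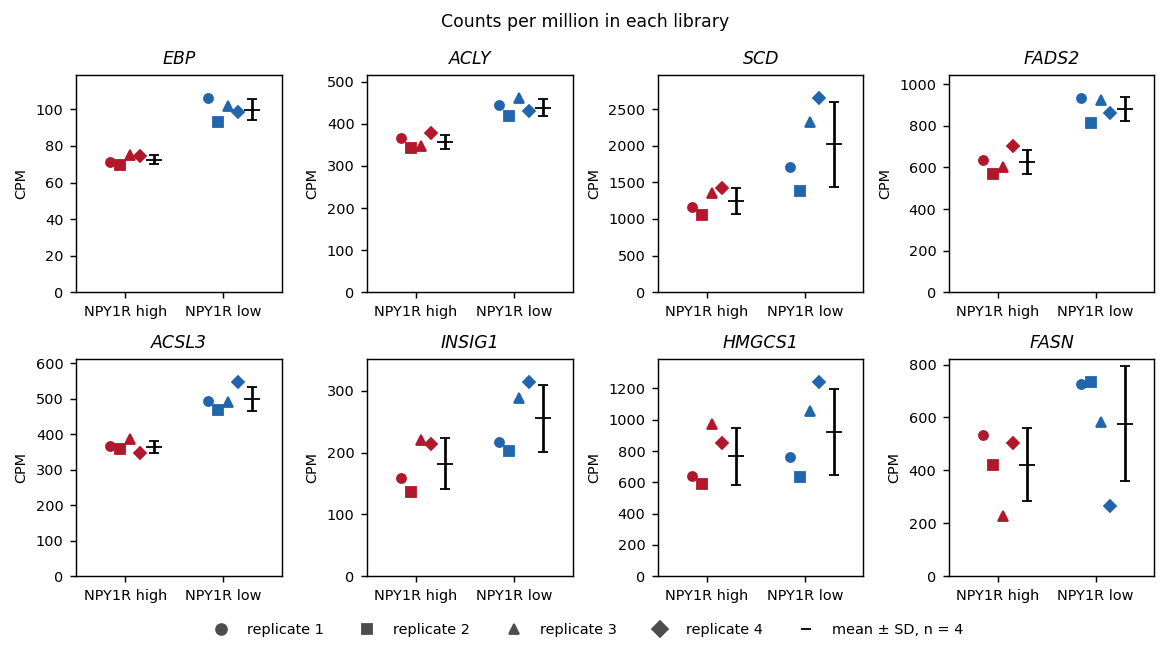
CPM (y axis, from 0) of 8 genes in each library, with marker shape for the replicate number and the mean ± SD of 4 libraries beside each group. EBP, ACLY, FADS2 and ACSL3 do not overlap between the groups, while SCD, INSIG1, HMGCS1 and FASN do.

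Of the 17 cholesterol enzymes, 1 was called lower (5.88%, against 7.81% of all tested genes) and 0 higher, although 14 of 17 (82.4%) had a negative change. The median log2 fold change was -0.25. EBP (chrX:48521808-48528716), the isomerase that moves a double bond in the sterol ring, was the one called. It had 71.2, 69.5, 75.1 and 74.5 CPM in NPY1R high libraries and 106.3, 93.2, 101.7 and 98.4 CPM in NPY1R low. The groups were far apart for the spread within them. The log2 fold change was -0.46 (SE 0.06), which is 27.4% less in NPY1R high, with an edgeR adjusted p of 0.000486.

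In the mevalonate arm, 0 of 7 genes passed in either direction, and at an unadjusted p of 0.05 there were 3 lower and 1 higher. HMGCS1, which makes HMG-CoA, had 643.2, 590.7, 976.1 and 852.1 CPM in NPY1R high libraries and 761.1, 636.5, 1056 and 1242 CPM in NPY1R low. Its groups overlapped broadly, and replicates 3 and 4 were higher than replicates 1 and 2 in both (log2 fold change -0.27, edgeR adjusted p 0.506). Its change was -0.06 without NPY1R low replicate 4 and -0.41 without NPY1R low replicate 2. ACAT2, which condenses acetyl-CoA units, had -0.33 (edgeR adjusted p 0.103), and MVD, which makes isopentenyl diphosphate, had -0.46 (edgeR adjusted p 0.167). MVK, the mevalonate kinase, had -0.22, IDI1, the isopentenyl diphosphate isomerase, -0.27 and FDPS, the farnesyl diphosphate synthase, -0.26, with edgeR adjusted p of 0.215, 0.189 and 0.235.

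PMVK, the kinase that acts next after MVK, had values in the other direction. It had 27.2, 25.0, 23.5 and 23.1 CPM in NPY1R high libraries and 21.3, 23.6, 20.3 and 17.1 CPM in NPY1R low. NPY1R low replicate 2 was above 2 of the NPY1R high libraries. The log2 fold change was 0.26 with a 95% interval of 0.02 to 0.50, and it did not pass over all genes (edgeR adjusted p 0.149).

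From squalene onward, MSMO1, a sterol demethylase, had -0.39 (edgeR adjusted p 0.125). Its levels were 151.3, 142.8, 203.2 and 171.3 CPM in NPY1R high libraries and 184.1, 180.9, 241.3 and 270.5 CPM in NPY1R low. Only the third NPY1R high replicate reached into the range of the NPY1R low libraries. SQLE, the squalene epoxidase, had -0.27, HSD17B7, a ketosteroid reductase of the pathway, -0.25 and CYP51A1, the lanosterol demethylase, -0.20, with edgeR adjusted p of 0.110, 0.225 and 0.117. The other 5 enzymes had smaller estimates, and none passed (edgeR adjusted p 0.538 to 0.931). Some were measured loosely, with a 95% interval of -0.43 to 0.28 for FDFT1 and -0.23 to 0.47 for TM7SF2. FDFT1, the squalene synthase, had -0.07, DHCR7, which makes cholesterol in the last reduction, -0.10 and NSDHL, a sterol dehydrogenase, -0.02. LSS, which closes the sterol ring, had 0.07 and TM7SF2, a sterol reductase, 0.12. The direction of NSDHL turned with the scaling, to 0.01 with median-of-ratios factors and 0.04 with upper-quartile factors, and its 95% interval was -0.18 to 0.15.

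Among the 6 regulators and carriers, 0 passed in either direction, and 3 were lower at an unadjusted p of 0.05. Their median log2 fold change, -0.36, was the lowest of the 4 groups of genes. INSIG1, itself a textbook SREBP target, had 158.5, 135.9, 219.6 and 213.5 CPM in NPY1R high libraries and 216.6, 202.4, 288.6 and 314.2 CPM in NPY1R low. Within replicates 1 and 2, and within replicates 3 and 4, the NPY1R high libraries were all below the NPY1R low ones, but the pooled groups overlapped. The log2 fold change was -0.49 (SE 0.18, edgeR adjusted p 0.115). INSIG2, which holds SCAP in the same way but is not a strong SREBP target, had -0.40 (edgeR adjusted p 0.0718), from means of 28.3 ± 2.02 CPM against 37.3 ± 7.08 CPM in NPY1R low (SD, n = 4 each). STARD4, a cytosolic sterol carrier, had -0.39 (edgeR adjusted p 0.171). SREBF1, which encodes the SREBP linked mainly to fatty acid genes, had -0.33 (edgeR adjusted p 0.253). SREBF2, whose SREBP acts mainly on cholesterol genes, had -0.13 (edgeR adjusted p 0.420), and SCAP had 0.09 (edgeR adjusted p 0.811).

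The 2 arms were set side by side as the mean log2 CPM of their genes in each library, relative to the mean of the 8 libraries. In fatty acid synthesis the NPY1R high libraries were at -0.13, -0.23, -0.17 and -0.02 and the NPY1R low libraries at 0.12, 0.00494, 0.23 and 0.19. These levels did not overlap. In cholesterol synthesis the NPY1R high libraries were at -0.12, -0.23, 0.01 and -0.01 and the NPY1R low libraries at 0.08, -0.01, 0.17 and 0.11, which overlapped. The medians of the single-gene changes were -0.25 for cholesterol and -0.31 for fatty acid synthesis. Their gap, cholesterol minus fatty acid, was 0.064. This gap changed sign without NPY1R high replicate 3, to -0.044, and without NPY1R low replicate 2, to -0.01. In both fits the cholesterol median was the lower, -0.285 against -0.241 and -0.325 against -0.315. On the scale of library levels the difference was taken the other way, as fatty acid minus cholesterol synthesis. It was -0.00709, -0.00146, -0.180 and -0.00858 in NPY1R high replicates 1 to 4, and 0.0424, 0.0137, 0.0593 and 0.0818 in NPY1R low. These differences did not overlap, and NPY1R high replicate 3 was far below the rest. The means were -0.0493 ± 0.0872 and 0.0493 ± 0.0287 (SD, n = 4 each). They differed by -0.0986 (NPY1R high minus NPY1R low), and by -0.0550 without NPY1R high replicate 3. On this scale fatty acid synthesis fell more with and without that library, whereas by medians cholesterol synthesis fell more without it. In NPY1R high replicate 3 FASN, 1 of the 10 fatty acid genes, deviated by -1.08 on the log2 scale from the other NPY1R high libraries. In NPY1R low replicate 4, where fatty acid minus cholesterol synthesis was highest (0.0818), FASN deviated by -1.34 from the other NPY1R low libraries. The share of FASN in these differences was not tested. The larger count of calls in the fatty acid arm was not tested as a difference.

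**Figure D3:**
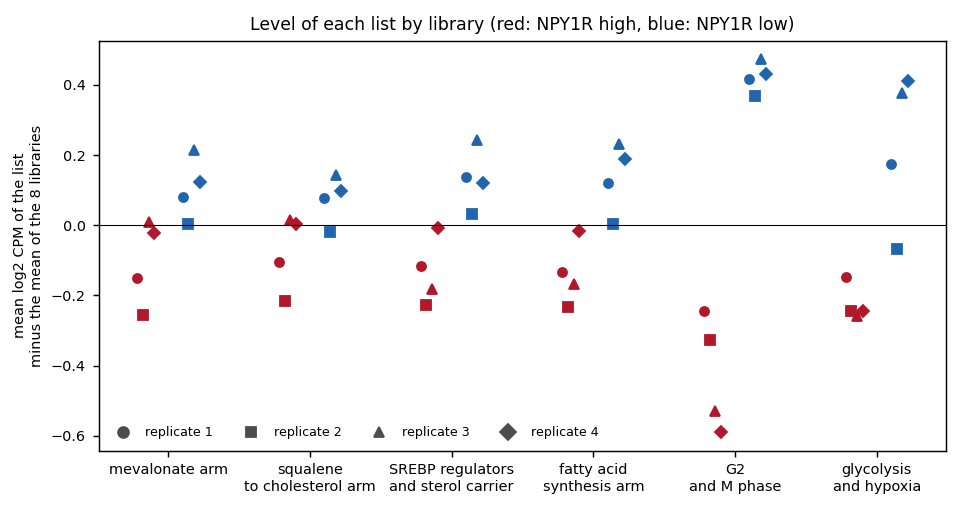
Mean log2 CPM of each gene list relative to the mean of the 8 libraries (y axis), per library, with NPY1R high in red and NPY1R low in blue. The fatty acid arm and the regulators do not overlap between the groups, both cholesterol arms do, and the G2 and M phase list is the furthest apart.

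Genes outside lipid synthesis also differed between the groups, where 7.81% of all tested genes were called lower and 5.78% higher. The 12 genes checked of the G2 and M phases were all called lower, with a median log2 fold change of -0.91 and CCNB2 and CCNB1 the largest falls at -1.13 and -1.10. Of 11 glycolysis and hypoxia genes, 6 were called lower and 0 higher, led by NDRG1 at -1.43 and PDK1 at -0.87. The levels of both lists did not overlap between the groups. Both lists were chosen with earlier results of these data known. Whether cell cycle and glycolysis had a share in the lipid gene values was not tested.

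The 8 libraries also varied within their groups, and for the 33 genes this was read against transcript GC content. The same reading was not made over all tested genes, so it is not shown to be particular to these 33. In NPY1R low replicate 4, compared with the other 3 NPY1R low libraries, all 15 genes with a transcript GC content under 50% were higher, and 13 of the 18 with 50% or more were lower. In NPY1R high replicate 3, compared with the other 3 NPY1R high libraries, 14 of the 15 were higher and 11 of the 18 lower. Across the 33 genes, Pearson's r between this deviation and GC content was -0.828 (Spearman's rho -0.821) in NPY1R low replicate 4 and -0.734 (Spearman's rho -0.794) in NPY1R high replicate 3. The deviations in the 2 libraries had an r of 0.878 with each other. These are descriptions over genes, which share the libraries and are not independent replicates.

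FASN, with 65.3% GC, and HMGCS1, with 40.2%, had the lowest and the highest deviation in NPY1R low replicate 4. On the log2 scale FASN deviated by -1.34 from the other NPY1R low libraries, and HMGCS1 by 0.64. MVD (65.2% GC) had -0.89 and SREBF1 (63.7%) -0.69, while STARD4 (39.3%) had 0.48 and MSMO1 (38.1%) 0.43. The genes called lower were in the middle, from 45.4% GC for ACSL3 to 56.2% for EBP, and EBP, ACLY and FADS2 deviated by -0.03, -0.04 and -0.05 in this library. SCD (47.1%) deviated by 0.59. Genes of both arms and regulators lay at both ends.

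**Figure D4:**
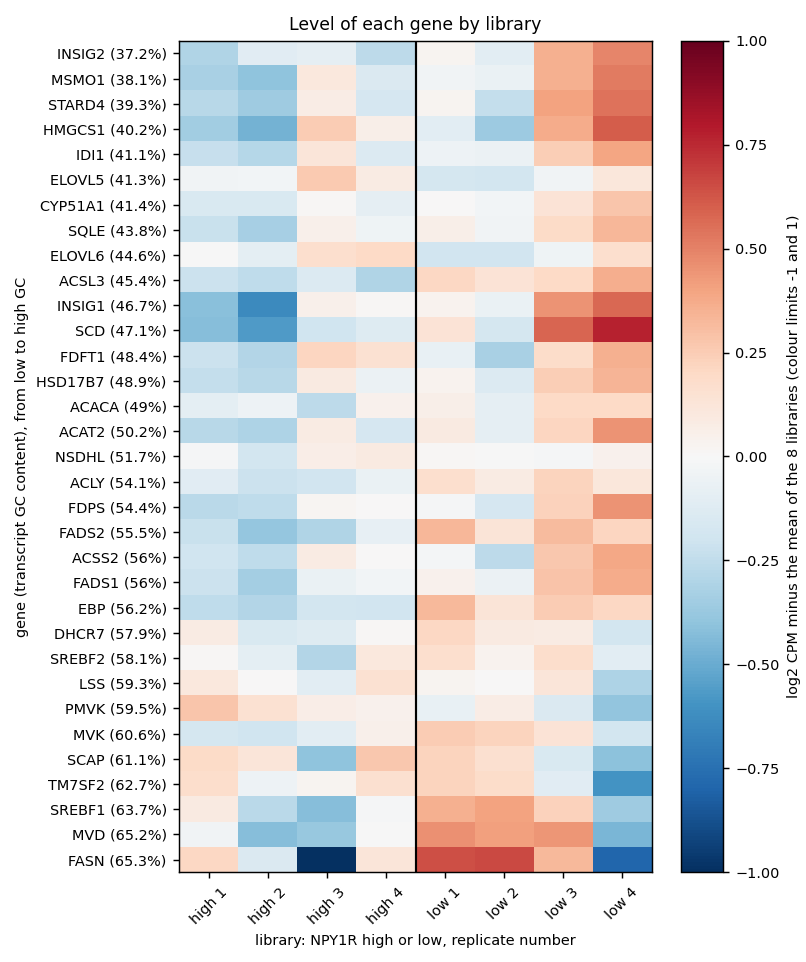
Log2 CPM of each gene relative to its mean over the 8 libraries (colour), with libraries in columns and genes in rows from low to high transcript GC content. NPY1R low replicate 4 runs from high at the top to low at the bottom, as does NPY1R high replicate 3 more weakly, and EBP, ACLY and FADS2 keep 1 colour within each group.

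The number of calls depended on how this variation was treated. With each library's trend on transcript GC removed by an offset, 15 of 33 genes (3 mevalonate, 4 later cholesterol, 4 regulator and 4 fatty acid genes) were called lower by edgeR, where 10.8% of all tested genes were. PMVK was called higher (edgeR adjusted p 0.010), where 7.43% of all tested genes were. When the fit took in whether a library was replicate 1 or 2 or replicate 3 or 4, a division seen in earlier results and not in the labels, 17 were called lower (12% of all tested genes) and PMVK again higher (8.60% of all tested genes). In that fit INSIG1 had an edgeR adjusted p of 0.000177, MSMO1 0.00209, SQLE 0.00376 and FADS1 0.00122. Because the division was taken from these same data, the p-values of that fit may be too small. Without NPY1R low replicate 2, 9 genes were called lower and 0 higher, against 6.51% and 5% of all tested genes. Without NPY1R high replicate 3 and NPY1R low replicate 4 together, 8 were called lower and 0 higher, against 6.82% and 6.92%. The median of the cholesterol enzymes was -0.234 with the offset and -0.242 with the term, and that of the fatty acid arm was -0.282 and -0.307. Without NPY1R low replicate 4 the cholesterol median, otherwise -0.246, was -0.134, without NPY1R low replicate 2 it was -0.325, and in replicates 1 and 2 alone it was -0.141.

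Replicates 1 and 2 and replicates 3 and 4 can be read as separate comparisons of 2 libraries against 2. Of the 33 genes, 24 (72.7%) were lower in NPY1R high in both, 5 were higher in both and 4 changed sides, whereas 31% of all genes tested in both were lower in both. The fatty acid arm had 8 of 10 lower in both, the cholesterol enzymes 11 of 17 and the regulators 5 of 6. EBP had log2 fold changes of -0.47 and -0.39, ACSL3 of -0.37 and -0.47, ACLY of -0.25 and -0.27, and INSIG1 of -0.47 and -0.45, close in the separate sets. SCD was less even, at -0.45 and -0.81, and INSIG2 at -0.13 and -0.56. FASN had -0.57 and -0.19 and MVD -0.61 and -0.21. TM7SF2 had -0.10 and 0.46 and was 1 of the 4 that changed sides. In replicates 1 and 2 alone edgeR called 15 genes lower and 1 higher (ELOVL5), against 11.2% and 10% of all genes tested there. In replicates 3 and 4 alone it called 5 lower and 0 higher, against 3.17% and 3.18%.

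**Figure D5:**
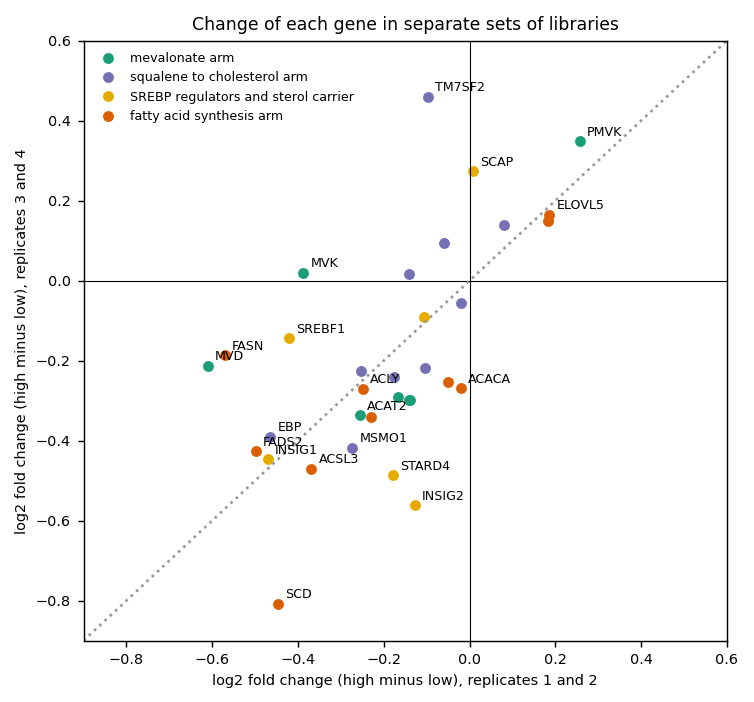
Log2 fold change (NPY1R high minus NPY1R low) of each gene in replicates 1 and 2 (x axis) against that in replicates 3 and 4 (y axis), coloured by arm, with the line of equal change dotted. Of the 33 points, 24 lie below 0 on both axes, and SCD, INSIG2 and TM7SF2 lie far from the line.

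Genes next to these arms were counted from lists written for the purpose. Over all tested genes 7.81% were called lower and 5.78% higher, the shares to set beside each count here and on the fatty acid side. None of the 10 tested genes of the isoprenoid branch, which leads from the mevalonate arm to prenylation and ubiquinone, passed in edgeR, and 0 had an unadjusted p under 0.05 (median log2 fold change -0.09). Of 10 genes for SREBP processing and its degradation machinery, 1 was called higher, MBTPS1, the site-1 protease that cuts SREBPs in the Golgi. MBTPS1 was at 184.6 ± 2.9 CPM in the NPY1R high libraries, against 160.7 ± 2.78 CPM (SD, n = 4 each), a log2 fold change of 0.20 (edgeR adjusted p 0.0109). Of 14 genes of sterol trafficking and export, 2 were called lower. They were SCARB1, a receptor for high density lipoprotein, at -0.60 (edgeR adjusted p 0.00773), and NCEH1, a cholesteryl ester hydrolase, at -0.45 (edgeR adjusted p 0.00200).

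On the fatty acid side, 1 of 10 other elongation and desaturation genes was called lower, the elongation reductase HSD17B12 (log2 fold change -0.29, edgeR adjusted p 0.00503). Of 8 genes that supply acetyl-CoA and NADPH, the NADPH-making enzymes IDH1 (-0.42, edgeR adjusted p 0.0236) and ME1 (-0.29, edgeR adjusted p 0.0124) were called lower. Of 12 genes of glycerolipid synthesis and lipid droplets, 12 had a negative change, where 55.9% of all tested genes did. Of them 2 (16.7%) were called lower, namely the droplet protein HILPDA (-0.27) and the phosphatidate phosphatase LPIN2 (-0.29). Of 17 genes of fatty acid oxidation, 1 was called lower, CPT1A, which admits fatty acids to mitochondria (-0.26, edgeR adjusted p 0.0154), and the median was -0.03. Of 11 genes of fatty acid activation and lipogenic regulation, 0 passed in edgeR, and at an unadjusted p of 0.05 there were 2 lower and 1 higher.

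Some of the 33 symbols share sequence with others. ACAT2 overlaps TCP1 by 615 bases and SOD2 by 237, MVK overlaps MMAB by 233, and IDI1 overlaps the non-coding IDI2-AS1 by 5050 bases, with 509 counts for that gene against 50480 for IDI1. HSD17B7 has a transcribed pseudogene, HSD17B7P2, with 742 counts over the 8 libraries against 9303 for HSD17B7, and FDPS has FDPSP2 with 224 against 41867. How reads were divided between these is not given in the sources used here, so the values of these genes are uncertain to that extent.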

How the data were processed

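RNA from 8 BT474 samples was sequenced, per the labels' protocols after a stranded total RNA library preparation. The authors deposited expected counts, which are estimated for each gene symbol and carry no scaling between libraries, and the submitters' processing notes name STAR 2.5.2, RSEM 1.3.0 and the build hg38, with no role or order. The annotation and the use of strand in counting are not given in the sources used here. Counts were rounded to whole numbers, filtered with edgeR's filterByExpr (minimum count 10, leaving 14008 of 26475 genes) and scaled by TMM. Differences are NPY1R high minus NPY1R low, from the quasi-likelihood test of edgeR with no covariate, and with Benjamini-Hochberg adjustment over all genes tested and a threshold of 0.05. SEs are the log2 fold change divided by the root of the F statistic. The tools were edgeR 4.0.16, DESeq2 1.42.0 and limma 3.58.1 under R 4.3.3. Log2 CPM used a prior count of 2. The procedure was also run on simulated counts with a single dispersion for all genes and no deviation shared between genes of a library. The libraries here do hold such deviations, so that run does not show how the procedure behaves on them.

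The 33 genes and all lists were chosen with earlier results of these data known. All 33 are named, and other genes were named from each list where they passed the threshold with a mean of at least 5 CPM, at most 2 in each direction. Transcript GC content is the median over a gene's GENCODE release 29 transcripts (the protein-coding ones where it has any), known for 94.1% of tested genes. Libraries within a group differed by 6.0 to 66.4 chi-square per degree of freedom, so none was deposited more than once. Alternatives were other scalings, TMM references, filters and tests, a replicate block, a GC offset, a term for or a split by replicates 1 and 2 against 3 and 4, and leaving out libraries. Leaving out NPY1R high replicate 3 and NPY1R low replicate 4 together was chosen after seeing the data. The division of replicates 1 and 2 from 3 and 4 also came from earlier results of these data. Reads carried no stated molecular identifiers, so counts may repeat a molecule.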

Additional observations from a re-analysis of the deposited data

Results flagged for a closer look

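MVD had 21.88 CPM in NPY1R low replicate 4, against 39.86, 40.77 and 41.17 CPM in the rest of its group. Its distance to the closest value made up 0.932 of the whole range, which is past Dixon's 95% critical value for 4 samples. MVD has a transcript GC content of 65.2%, and FASN, at 65.3%, was also lowest in that library within its group. The share of GC content in this value was not tested.

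The level of fatty acid minus cholesterol synthesis was -0.18 in NPY1R high replicate 3, and the closest NPY1R high library was at -0.00858. This distance was 0.96 of the range, past the same critical value. Among 74 sets of 4 values these 2 cases stood apart, and about 3.7 would be picked by chance.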

How the results depend on the processing

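Of 1133 values over 39 results and 30 alternatives, 1014 were counted as the same. For a gene this means the same side of the threshold and the same sign. For a count it means a change of no more than 1.5 times, and for a median or the gap between arms a move below the spread between libraries. A further 80 newly passed the threshold or, for a count, grew by over 1.5 times, 15 lost it and 1 moved by more than the spread. The remaining 23 were sign changes of single genes that had not passed. The gap between the arm medians also changed sign, without NPY1R high replicate 3 and, by less than the spread, without NPY1R low replicate 2. The rise of NPY1R, the gene that names the groups, passed in every fit and is a check of the labels only.

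The count of 5 genes called lower was 4 to 9 when each library was left out in turn (9 without NPY1R low replicate 2). The count called higher stayed at 0. Over all tested genes, 4.42% to 7.51% were called lower in these fits and 4.41% to 7.53% higher. With other settings the genes called lower numbered 15 with the GC offset, 17 with the term for replicates 1 and 2 against 3 and 4, 15 in replicates 1 and 2 alone, and 8 without NPY1R high replicate 3 and NPY1R low replicate 4. The genes called higher numbered 1 with the offset (PMVK), 1 with the term (PMVK) and 1 in replicates 1 and 2 alone (ELOVL5). At an adjusted p under 0.01, 4 remained lower, and the share of all tested genes at that threshold is not given here. The replicate numbers were not taken as a pairing in the main fit. The deviations of same-numbered libraries correlated at 0.339, 0.157, 0.0907 and 0.0178 across genes, all positive. These values cannot exclude a pairing, because NPY1R high replicate 3 and NPY1R low replicate 4 deviated together (r = 0.501). The running numbers in the sample titles alternate between NPY1R low and NPY1R high of the same replicate number. With the replicate block 11 genes were called lower and 0 higher (7.34% and 5.75% of all tested genes), and with the GC offset and replicate block 19 lower and 1 higher (12.7% and 8.47%). The gap between the medians of the arms (cholesterol minus fatty acid), 0.064, lay between -0.044 (without NPY1R high replicate 3) and 0.109 when libraries were left out singly.

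SCD lost its call in 7 of the 8 fits that left out a library, and with upper-quartile factors (edgeR adjusted p 0.0631), 3 other TMM references (0.0501 to 0.0511), a filter at 1 CPM in 4 libraries (0.0527), and without NPY1R high replicate 3 and NPY1R low replicate 4 (0.073). ACLY (0.155) and FADS2 (0.0615) lost theirs in replicates 3 and 4 alone, where fewer samples were tested.

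NSDHL changed sign with edgeR adjusted p of 0.835 with upper-quartile factors, 0.896 with scaling to library totals, 0.96 with median-of-ratios factors, 0.938, 0.943, 0.962, 0.964, 0.896, 0.891 and 0.929 with the other TMM references, 0.902 without a filter, 0.883 at 1 CPM, 0.694 in replicates 3 and 4 alone and 0.983 without NPY1R high replicate 3 and NPY1R low replicate 4, and with 0.976 in DESeq2. Its adjusted p lay from 0.803 to 0.973 with libraries left out singly. MVK (0.966) and DHCR7 (0.961) changed sign in replicates 3 and 4 alone and TM7SF2 (0.34) in replicates 1 and 2 alone. FDFT1 changed sign without NPY1R high replicate 2 (0.987) and without NPY1R low replicate 4 (0.773), within a range of 0.514 to 0.987. The causes were not tested.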

Other observations

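ACSL1, an acyl-CoA synthetase related to ACSL3, was at 523 ± 49.3 CPM in the NPY1R high libraries, against 644 ± 80.1 CPM (SD, n = 4 each), a log2 fold change of -0.30 that did not pass (edgeR adjusted p 0.0717). ACSL4, another relative, which prefers polyunsaturated fatty acids, was at 3.40 ± 1.36 CPM in NPY1R high, against 1.48 ± 0.699 CPM (SD, n = 4 each), a log2 fold change of 1.22 in the other direction (edgeR adjusted p 0.0712). MGLL, the monoglyceride lipase, was at 74.6 ± 16 CPM, against 117.5 ± 37.6 CPM (SD, n = 4 each), with a log2 fold change of -0.66 (edgeR adjusted p 0.0961). DECR1, a reductase used to oxidise unsaturated fatty acids, was at 96.4 ± 9.79 CPM, against 81.3 ± 3.62 CPM (SD, n = 4 each), with a log2 fold change of 0.24 (edgeR adjusted p 0.0575). These 4 genes, from lists of fatty acid activation, lipid droplets and fatty acid oxidation, were chosen after their values were seen.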
